A study of Mus musculus with 10 samples.

Results

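Transcripts of 10 genes that T cells and natural killer (NK) cells use were followed through bulk RNA-seq of macrophages sorted from treatment-resistant Braf-mutant melanomas. They were Cd3e, Cd3g, Cd8a, Foxp3, Il2rb, Gzmb, Nkg7, Prf1, Ncr1 and Ctla4, listed by symbol and chosen with earlier results of these data known. They are 10 of the 55359 gene identifiers counted. The tested libraries were 5 from Ccr2 KO mice, homozygous for a red fluorescent protein (RFP) allele of Ccr2 (Ccr2RFP/RFP). They were set against 5 Control libraries (Ccr2RFP/+), whose titles call them WT although the genotype label gives a single RFP allele, so every library carries at least 1 RFP allele. Shared by both groups were male sex, a tumour labelled resistant/rebound, Braf and Mek inhibitors given each day up to collection, and sorting for the macrophage antigen F4/80. The labels give neither strain nor age, and do not say that the 5 libraries of a group came from separate animals. The p-values therefore measure the spread between these libraries, which may be technical in part.

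T cells recognise antigen through a T cell receptor that signals through the CD3 chains, and the CD8 coreceptor marks the cytotoxic lineage. Cytotoxic T cells and NK cells kill by releasing granules that hold perforin, which opens the target membrane, and granzymes, which enter and start cell death. Regulatory T cells, set by the transcription factor Foxp3, restrain this response, in part through the inhibitory receptor Ctla4. A sort for F4/80 aims at macrophages, and these transcripts are best known from other cells than the labelled type. In bulk RNA, fewer cells of a type and less RNA per cell cannot be told apart.

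Each library held between 34639808 and 43360206 counts in genes. Ccr2, the targeted chemokine receptor, averaged 4.72 ± 1.41 CPM, read counts relative to the library's TMM-scaled size, in KO libraries and 119 ± 45.9 CPM in Control libraries (SD, n = 5 each), and the groups did not overlap. Adgre1, the gene of the F4/80 antigen, averaged 1836 ± 189 CPM in KO libraries and 1826 ± 114 CPM in Control libraries. Its log2 fold change was 0.01 ± 0.09 (SE; edgeR adjusted p = 0.978). The closest pairs within a group were Control 1 with Control 2, whose median chi-square per gene was 2.75, and Control 3 with Control 4, whose value was 2.66. The next pair, KO 4 and KO 5, had 6.54, while sampling noise alone would give 0.455. Among the 14374 genes tested, 1.41% passed an adjusted p of 0.05 in either direction, and 0.543% did so with lower levels in KO libraries.

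Promoter sequence is shown for 4 of the genes whose levels followed each other most closely, the T cell receptor subunits Cd3e and Cd3g, the coreceptor Cd8a and the granule gene Nkg7. Each is the 150 bases before the gene's start in RefSeq on GRCm38.p6, written in the direction of the gene. Capitals mark the Ets core GGAA and the Runx motif TGTGGT, searched on both strands, so that TTCC and ACCACA are the same motifs read from the other strand. The regions are chr9:45009612-45009761 on the minus strand for Cd3e, chr9:44980432-44980581 on the minus strand for Cd3g, chr6:71373277-71373426 on the plus strand for Cd8a and chr7:43436988-43437137 on the plus strand for Nkg7.
Cd3e: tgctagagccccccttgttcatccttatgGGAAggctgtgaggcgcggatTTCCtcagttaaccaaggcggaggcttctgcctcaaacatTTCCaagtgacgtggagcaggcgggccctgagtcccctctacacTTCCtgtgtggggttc
Cd3g: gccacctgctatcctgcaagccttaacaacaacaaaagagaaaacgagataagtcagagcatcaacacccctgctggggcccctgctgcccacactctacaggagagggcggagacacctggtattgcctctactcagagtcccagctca
Cd8a: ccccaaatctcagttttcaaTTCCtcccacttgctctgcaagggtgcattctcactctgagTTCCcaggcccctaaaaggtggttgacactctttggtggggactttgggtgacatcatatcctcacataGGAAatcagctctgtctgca
Nkg7: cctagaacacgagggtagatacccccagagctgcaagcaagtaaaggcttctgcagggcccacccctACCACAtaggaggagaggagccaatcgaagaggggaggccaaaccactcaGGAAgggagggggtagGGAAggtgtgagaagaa

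The Cd3e window held 4 Ets cores, the Cd8a window 3 and the Nkg7 window 2, while the Cd3g window held 0 of either motif. Nkg7 also had 1 Runx match. Of the 10 genes, 9 were found in the promoter table, and 6 of those 9 had an Ets core and 4 had a Runx match. For Prf1 and Gzmb, the bases just after the start were not found in a transcript of that gene, so their windows are less certain. Both are among those with a Runx match, and Prf1 is among those with an Ets core. Over all 27018 promoters of the same length, 80.8% held an Ets core and 8.53% a Runx match. Such a match describes letters and is not evidence of a bound site.

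The genes had one pattern in common across libraries. KO library 2 was the highest KO library in 10 of 10 genes, and Control library 2 was the highest Control library in 10 of 10. KO libraries 1, 4 and 5 lay below the lowest Control library in 10 of 10 genes. For Ncr1 in KO library 5 this rests on library size, as it and Control library 3 each had 1 count. KO library 2 exceeded every Control library in 3 genes, Cd3e, Cd8a and Il2rb, and exceeded the Control mean in 7. The groups did not separate completely for any of the 10 genes, whereas 4.70% of all tested genes had groups that did not overlap.

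**Figure D1:**
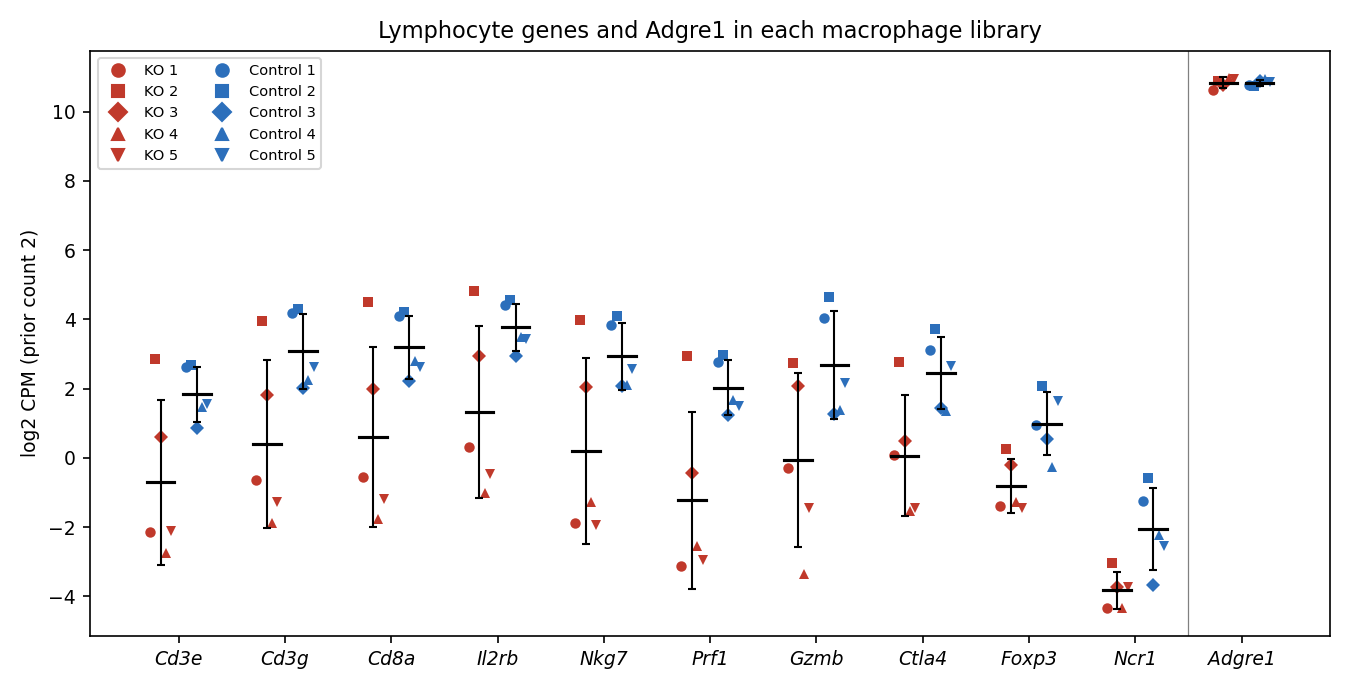
Level of each of the 10 genes in every library, on a log2 CPM axis with a prior count of 2. KO libraries stand left and Control libraries right, each marker shape is 1 library number, the bar is the mean and the error bar the SD over 5 libraries. KO library 2 lies at the top of the KO group in all 10 genes, and KO libraries 1, 4 and 5 lie below every Control library in them. For Ncr1, KO library 5 and Control library 3 each had 1 count.

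No gene of the 10 passed the threshold in the edgeR quasi-likelihood test over all genes. Of the 9 tested, 0 were called, 1 (Foxp3, lower in KO) had an unadjusted p under 0.05 and 9 had a log2 fold change below 0, against 50.5% of all tested genes with a value below 0. An unadjusted p under 0.05 with lower levels in KO libraries was found in 7.28% of all tested genes. DESeq2 called 1 of the 9, Foxp3, against 5.71% of all genes in that test, and limma-voom called 0, against 3.10%. The log2 fold change was below -1 for 7 of 9, against 4.59% of all tested genes, and the median over the 9 was -1.38, beside 0.00 over all tested genes. Without KO library 2 the median was -3.02 and 9 of 9 lay below -1, and without KO libraries 4 and 5 it was -0.69 and 3 of 9 did (Foxp3, Gzmb and Ctla4). The 10th gene, Ncr1, had too few counts to be tested.

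Among genes of antigen recognition, Cd3e (ENSMUSG00000032093), a signalling chain of the receptor, stood at 0.176, 7.20, 1.47, 0.0978 and 0.183 CPM in KO libraries 1 to 5. Control libraries 1 to 5 had 6.16, 6.30, 1.77, 2.69 and 2.87 CPM. KO library 2 was above every Control library, and the other 4 KO libraries were below all of them. The means were 1.82 ± 3.06 CPM in KO libraries and 3.96 ± 2.12 CPM in Control libraries (SD, n = 5 each). The log2 fold change was -1.12 ± 1.01 (SE; edgeR adjusted p = 0.625), so the difference was about the size of its error. Without KO library 2 it was -3.03 (edgeR adjusted p = 0.104).

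Cd3g (ENSMUSG00000002033), which pairs with the epsilon chain in the same complex, had 0.593, 15.4, 3.47, 0.220 and 0.365 CPM in KO libraries 1 to 5. It had 17.97, 19.6, 4.0, 4.71 and 6.10 CPM in Control libraries 1 to 5. For Cd3g, KO library 2 fell inside the Control range, and the other KO libraries lay under it. For Cd3g the log2 fold change was -1.38 ± 1.04 (SE; edgeR adjusted p = 0.549), and without KO library 2 it was -3.16 (edgeR adjusted p = 0.115).

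Cd8a (ENSMUSG00000053977), a chain of the coreceptor of cytotoxic T cells that some dendritic cells also carry, stood at 0.637, 22.4, 3.93, 0.244 and 0.392 CPM in KO libraries 1 to 5. In Control libraries 1 to 5 it stood at 17.1, 18.5, 4.57, 6.84 and 6.10 CPM. KO library 2 had the highest Cd8a of all 10 libraries. For Cd8a the log2 fold change was -0.94 ± 1.07 (SE; edgeR adjusted p = 0.705), the smallest in size of the 9, and -3.02 without KO library 2 (edgeR adjusted p = 0.115).

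The granule genes came next. Gzmb (ENSMUSG00000015437), which encodes granzyme B, had 0.769, 6.59, 4.18, 0.0489 and 0.313 CPM in KO libraries 1 to 5, against 16.3, 24.97, 2.34, 2.53 and 4.40 CPM in Control libraries 1 to 5. Of the 10 genes it had the widest span, 511-fold between its highest and its lowest library, where that of Foxp3 was the narrowest at 13.2-fold (Ncr1, at 0 in 2 libraries, has no such ratio). KO library 3, at 4.18 CPM, exceeded Control libraries 3 and 4, a place it took for no other granule gene. Its log2 fold change of -2.09 had a standard error of 1.07 (edgeR adjusted p = 0.380).

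Prf1 (ENSMUSG00000037202), which encodes perforin, had 0.0659, 7.56, 0.684, 0.122 and 0.0783 CPM in KO libraries 1 to 5, against 6.74, 7.86, 2.31, 3.11 and 2.77 CPM in Control libraries 1 to 5. The values of KO libraries 1, 4 and 5 rest on 3 to 5 counts. KO library 2 came below Control library 2 alone, while no other KO library reached 1 CPM. Perforin's log2 fold change was -1.42 ± 1.13 (SE; edgeR adjusted p = 0.574). Without KO library 2 it was -4.24 and passed the threshold (edgeR adjusted p = 0.0320), and Prf1 was then the only one of the 9 tested genes to do so.

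Nkg7 (ENSMUSG00000004612), a granule membrane protein of NK cells and cytotoxic T cells, had 0.220, 15.9, 4.05, 0.367 and 0.209 CPM in KO libraries 1 to 5. Control libraries 1 to 5 had 14.1, 17.04, 4.17, 4.22 and 5.88 CPM. KO library 3 lay just under the lowest Control library, and KO library 2 came below Control library 2 alone. Per kilobase of merged exon, Nkg7 had the highest level of the 10 genes, 4.53 ± 7.39 CPM per kb in KO libraries and 9.94 ± 6.63 CPM per kb in Control libraries. On that scale Gzmb followed in Control libraries with 1.65 ± 2.004 CPM per kb in KO libraries and 7.02 ± 7.03 CPM per kb in Control libraries. Il2rb, Cd3g, Cd8a, Ctla4, Prf1, Cd3e, Foxp3 and Ncr1 came after it in that order, down to 0.0161 ± 0.0191 CPM per kb in KO libraries and 0.169 ± 0.153 CPM per kb in Control libraries for Ncr1. In Control libraries each step between neighbours was smaller than the larger of their SDs, except that from Foxp3 to Ncr1. Adgre1 stood at 567 ± 58.2 CPM per kb in KO libraries and 564 ± 35.2 CPM per kb in Control libraries.

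Il2rb (ENSMUSG00000068227), the shared beta chain of the IL-2 and IL-15 receptors that NK cells and activated T cells display, had 1.19, 28.4, 7.60, 0.440 and 0.679 CPM in KO libraries 1 to 5. In Control libraries 1 to 5 it had 21.1, 23.5, 7.69, 11.2 and 10.7 CPM. KO library 2 was the highest of all 10 libraries, and the log2 fold change was -0.95 ± 0.97 (SE; edgeR adjusted p = 0.669). Without KO library 2 it was -2.57 (edgeR adjusted p = 0.148).

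Ncr1 (ENSMUSG00000062524), which encodes the activating receptor NKp46 of NK cells and some innate lymphoid cells, was barely counted. It had 0, 3, 1, 0 and 1 counts in KO libraries 1 to 5 and 14, 25, 1, 7 and 5 counts in Control libraries 1 to 5. A count of 0 allows up to 3 counts, for counting error only. Relative to the library's total without TMM scaling, 3 counts are 0.0707 CPM in KO library 1 and 0.0712 CPM in KO library 4. Of the 10 genes Ncr1 had the fewest counts, 5 over the KO libraries and 52 over the Control libraries. Fitted without a filter on low counts, its log2 fold change was -3.25 ± 0.94 (SE; edgeR adjusted p = 0.180).

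Foxp3 and Ctla4 stand for regulatory T cells in the list. Foxp3 (ENSMUSG00000039521) had 0.329, 1.13, 0.811, 0.367 and 0.313 CPM in KO libraries 1 to 5, against 1.88, 4.15, 1.40, 0.788 and 3.06 CPM in Control libraries 1 to 5. KO libraries 2 and 3 exceeded Control library 4 alone. The means were 0.590 ± 0.366 CPM in KO libraries and 2.26 ± 1.35 CPM in Control libraries (SD, n = 5 each), and the log2 fold change was -1.93 ± 0.52 (SE; edgeR adjusted p = 0.106). Foxp3 was thus the member with the smallest standard error, and the one whose KO library 2 stood lowest beside the Control mean apart from Ncr1. DESeq2 gave it the same log2 fold change of -1.93 with an adjusted p of 0.00972.

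Ctla4 (ENSMUSG00000026011), an inhibitory receptor of regulatory and activated T cells, had 1.01, 6.76, 1.34, 0.293 and 0.313 CPM in KO libraries 1 to 5. In Control libraries 1 to 5 it had 8.57, 13.1, 2.66, 2.50 and 6.27 CPM. KO library 2 lay above 3 of the 5 Control libraries. The log2 fold change of Ctla4 was -1.76 ± 0.84 (SE; edgeR adjusted p = 0.348) and -3.14 without KO library 2 (edgeR adjusted p = 0.0520).

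Single-gene exact two-sided permutation tests on log2 CPM, over all 252 arrangements of the libraries, gave p = 0.0238 for Foxp3, 0.0397 for Prf1, 0.0159 for Ncr1 and 0.0476 for Ctla4. The other 6 genes had p between 0.0556 and 0.0873, and the smallest p this design allows is 0.00794. These p-values are not adjusted. Without KO libraries 4 and 5, all 9 log2 fold changes stayed below 0 but came closer to it, at -0.42 for Cd3e, -0.24 for Cd8a, -0.26 for Il2rb and -1.57 for Foxp3. KO library 3 lay below every Control library in 8 of the 10 genes, the exceptions being Foxp3 and Gzmb. For Ncr1 this too rests on library size, as KO library 3 and Control library 3 each had 1 count.

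The genes varied together within genotypes. Levels on the log2 CPM scale were centred on each genotype's mean, so that what remains is how libraries of the same genotype differ. Over the 45 pairs of genes, Pearson's r over 10 libraries ran from 0.56 to 0.99 with a median of 0.90. Since KO libraries 1, 4 and 5 stand apart at the low end, the pairs were also taken over the 7 other libraries, a choice made after seeing the data, and their median was 0.89. The close Control pairs mean that the 10 points are not fully independent.

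**Figure D2:**
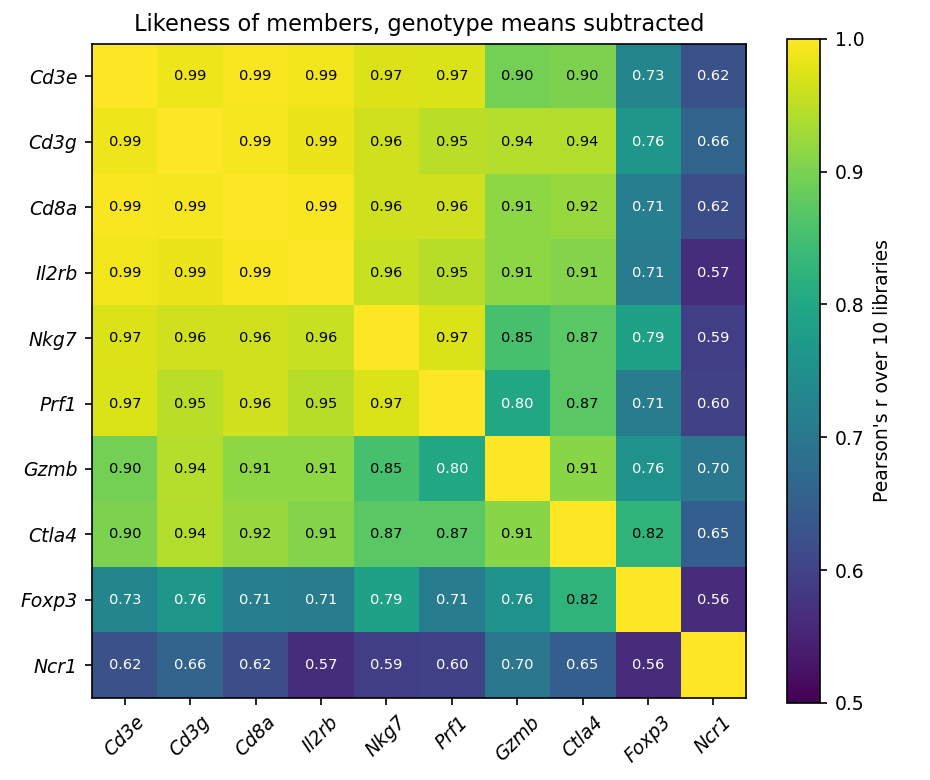
Heat map of Pearson's r between the 10 genes over 10 libraries, on log2 CPM centred on each genotype's mean, with genes on both axes and r as colour and number. Cd3e, Cd3g, Cd8a, Il2rb, Nkg7 and Prf1 form a block with r from 0.946 to 0.99, while Foxp3 and Ncr1 hold the lowest values.

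The closest agreement was among 6 genes, Cd3e, Cd3g, Cd8a, Il2rb, Nkg7 and Prf1, a set picked after seeing the values. Their 15 pairs had r from 0.946 to 0.99 over 10 libraries and from 0.92 to 0.997 over the 7. Cd8a and Il2rb put the 10 centred libraries in the same order, with a Spearman rho of 1. Taking Cd3e as the anchor, 9 relations with the other genes and 2 with macrophage measures were computed, with exact permutations within genotypes and unadjusted two-sided p-values. With Cd3g, r was 0.99 (exact permutation p = 0.000208) and Spearman's rho 0.96 (exact permutation p = 0.00111). With Cd8a, r was 0.99 (exact permutation p = 0.000486) and rho 0.98 (exact permutation p = 0.00174). Without KO libraries 2 and 4, the farthest from the median of Cd3e, these r were 0.97 and 0.98.

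Ctla4 and Gzmb followed Cd3e less tightly. Ctla4 had an r of 0.90 (exact permutation p = 0.000764) and a rho of 0.88 (exact permutation p = 0.00174), and r was 0.74 without KO libraries 2 and 4. Gzmb had an r of 0.90 (exact permutation p = 0.000278) and a rho of 0.87 (exact permutation p = 0.00792), and r was 0.87 without those libraries.

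Foxp3 and Ncr1 followed the others least. Foxp3 and Cd3e had an r of 0.73 (exact permutation p = 0.0103) and a rho of 0.71 (exact permutation p = 0.0156). Over the 8 genes other than Ncr1, r with Foxp3 ran from 0.71 to 0.82, and over the 7 libraries from 0.42 to 0.78. Ncr1 and Cd3e had an r of 0.62 (exact permutation p = 0.00153) and a rho of 0.68 (exact permutation p = 0.0142), with the low counts given above. The differences between these correlations were not tested.

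No relation of Cd3e with the F4/80 gene was detected. Adgre1 had an r of -0.18 with Cd3e (exact permutation p = 0.695) and a rho of -0.37 (exact permutation p = 0.375). The summed level of 18 core macrophage genes had an r of -0.21 (exact permutation p = 0.641) and a rho of 0.05 (exact permutation p = 0.903). Without KO libraries 2 and 4 its r turned to 0.41, and that of Adgre1 was -0.23. Over all 14373 other tested genes, the median r with Cd3e was 0.04, and 55 genes, or 0.383%, had an r of at least 0.9. Of these 55 genes, 6 are among the 10. Over the 7 libraries 201 genes reached that r.

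The genes most like each of the 10 were sought among 12311 genes whose mean reached 0.5 CPM. Lck, the kinase that starts T cell receptor signalling, was nearest to Cd3e (r = 0.99), Cd3g (r = 0.996) and Cd8a (r = 0.99), and it averaged 3.10 ± 4.43 CPM in KO libraries and 7.30 ± 3.70 CPM in Control libraries. Nearest to Il2rb was Gzmk, a further granzyme (r = 0.99). Nkg7 was closest to Thy1, a surface glycoprotein of mouse T cells (r = 0.99), and Prf1 to Eomes, a T-box transcription factor of NK and CD8 T cells (r = 0.98). Ctla4 was nearest to Trbc1, a constant region of the T cell receptor beta chain (r = 0.97), followed by the chemokine receptor gene Cxcr6 (r = 0.96). Trbc1 and its paralog Trbc2 share sequence, and reads that map to several places were listed as 0, so their levels are uncertain.

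Gzmb was nearest to Gimap8 (r = 0.98) and Gimap9 (r = 0.97), GTPases of the immunity-associated family found mainly in lymphocytes, and then to Rhof (r = 0.97). Foxp3 was nearest to S1pr4, a sphingosine phosphate receptor of lymphoid and myeloid cells (r = 0.93), then to Sem1 (r = 0.92), a proteasome subunit at 150 ± 14.2 CPM in KO libraries and 178 ± 11.4 CPM in Control libraries, and to Aplp1, a relative of the amyloid precursor protein (r = 0.92). Ncr1 was nearest to Sox13, a transcription factor of gamma delta T cells (r = 0.98), then to Ccl24, an eosinophil chemokine (r = 0.94), and Tvp23a (r = 0.93). The nearest genes of Foxp3 and Ncr1 thus include genes outside the T and NK lineages, and a highest r picked out of 12311 genes over 10 libraries is a description only.

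Lists of lymphocyte genes were read in the same fit. T cell identity, regulatory T cell, NK cell and cytotoxic granule genes together held 69 tested genes, 66 of them with a log2 fold change below 0. Of the 69, 1 was called higher in KO libraries (Cd4), against 0.870% of all tested genes, 1 was called lower (Rab27a) and 18 had an unadjusted p under 0.05, against 15.3% of all tested genes with such a p. DESeq2 called 1 higher and 9 lower, limma-voom 1 higher and 4 lower, and edgeR without KO library 2 called 1 higher and 6 lower. Over all genes, calls in either direction made up 5.71% in DESeq2, 3.10% in limma-voom and 1.63% in edgeR without KO library 2. The median log2 fold change was -1.21 over 26 T cell identity genes, -1.69 over 11 regulatory T cell genes, -1.10 over 16 NK cell genes and -1.09 over 17 cytotoxic granule genes. Some genes stand in more than 1 list, and members of the 10 are among them.

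Many T cell identity genes shared the library pattern. Of 23 tested outside the 10, 13 had an r of at least 0.9 with Cd3e, against 0.383% of all genes, and they include Lck, Thy1, Trbc2 and the receptor chain gene Cd247. Among 15 NK cell genes outside the 10, 2 reached it, among 14 cytotoxic granule genes 3, among 9 regulatory T cell genes 2 and among 9 checkpoint genes 5. Pdcd1, which encodes the inhibitory receptor PD-1, averaged 5.70 ± 7.36 CPM in KO libraries and 11.5 ± 6.68 CPM in Control libraries (edgeR adjusted p = 0.515), with an r of 0.90. Tnfrsf18, which encodes the costimulatory receptor GITR, averaged 1.42 ± 1.22 CPM in KO libraries and 5.45 ± 3.04 CPM in Control libraries (edgeR adjusted p = 0.132), with an r of 0.91. Cd160, a receptor of NK and cytotoxic T cells, had an r of 0.94.

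**Figure D3:**
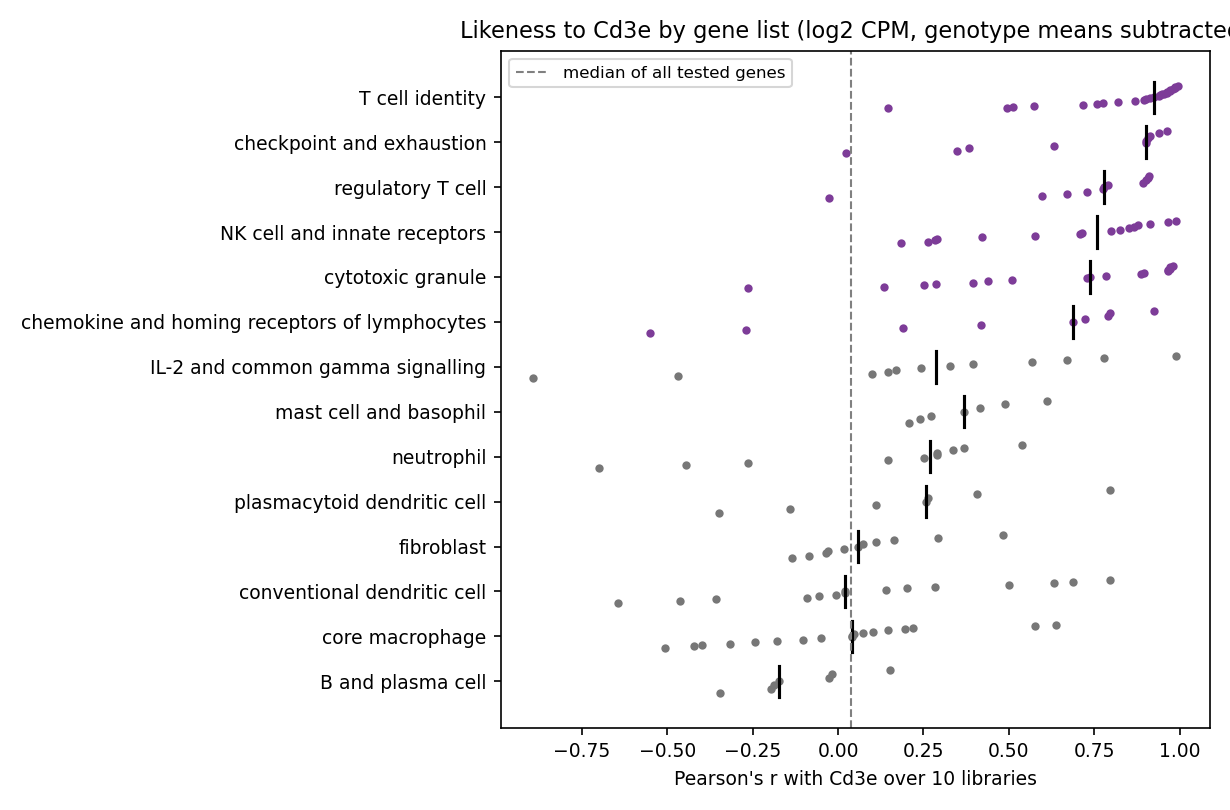
Pearson's r with Cd3e over 10 libraries, on log2 CPM centred on each genotype's mean, for the tested genes of each list. Each point is 1 gene, purple for the 6 lymphocyte lists and grey for the others, the black bar is the list's median and the dashed line is the median of all tested genes at 0.04. The median is 0.92 for T cell identity genes and 0.04 for core macrophage genes.

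Some lymphocyte genes had groups that did not overlap without passing the threshold. Over all tested genes, whether called or not, 4.70% had groups that did not overlap. Klrg1 (edgeR adjusted p = 0.172) and Btla (edgeR adjusted p = 0.0521) were also among the listed genes of this kind. Il2ra, the alpha chain of the IL-2 receptor that regulatory T cells carry, averaged 1.02 ± 0.524 CPM in KO libraries and 3.79 ± 2.02 CPM in Control libraries. Its log2 fold change was -1.90 ± 0.44 (SE; edgeR adjusted p = 0.0675). Il7r, the IL-7 receptor chain of naive and memory T cells and innate lymphoid cells, averaged 2.62 ± 1.12 CPM in KO libraries and 6.77 ± 1.98 CPM in Control libraries, with a log2 fold change of -1.37 (edgeR adjusted p = 0.0679). Gzmc, a granzyme in a cluster of similar genes whose counts are uncertain for that reason, had a log2 fold change of -4.22 (edgeR adjusted p = 0.0841). Since their groups do not overlap, every KO library, KO library 2 included, lay below every Control library for Il2ra, Il7r and Gzmc. The r of Il2ra with Cd3e was 0.67 over 10 libraries and 0.16 over the 7, and that of Il7r was 0.76 and 0.19.

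Cd4 and Rab27a, the genes called in these lists, followed Cd3e less closely than most T cell identity genes did. Cd4, the coreceptor of helper and regulatory T cells that mouse macrophages and dendritic cells can also express, had 184, 135, 127, 143 and 86.5 CPM in KO libraries 1 to 5 and 71.7, 75.2, 51.1, 62.7 and 47.2 CPM in Control libraries 1 to 5. Every KO library was above every Control library. The log2 fold change was 1.13 ± 0.20 (SE; edgeR adjusted p = 0.0223), and the r with Cd3e was 0.15 over 10 libraries and 0.66 over the 7. The call was lost without Control library 3 (edgeR adjusted p = 0.0557), Control library 4 (0.0599) or KO library 4 (0.0590).

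Rab27a, a small GTPase that docks lytic granules and other secretory vesicles, averaged 8.77 ± 1.99 CPM in KO libraries and 16.5 ± 1.16 CPM in Control libraries. Its log2 fold change was -0.91 ± 0.16 (SE; edgeR adjusted p = 0.0223), and its r with Cd3e was 0.44 over 10 libraries and 0.71 over the 7. That call was lost without any one of Control libraries 1 to 4 or KO libraries 4 and 5, with adjusted p-values from 0.0515 to 0.0685, and under 4 further alternatives.

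Other list genes departed from Cd3e, of which Lag3 and Zap70 were picked after seeing their values. Lag3, an inhibitory receptor of T and NK cells, had 3.18, 59.8, 5.96, 24.4 and 13.1 CPM in KO libraries 1 to 5 and 21.9, 24.3, 34.7, 38.9 and 14.0 CPM in Control libraries 1 to 5, with an r of 0.38. KO libraries 4 and 5, low in all 10 genes, held more Lag3 than KO libraries 1 and 3. Klrb1b, an inhibitory receptor gene of the NK gene complex, had 12.1, 5.87, 5.78, 8.41 and 2.90 CPM in KO libraries 1 to 5 and 93.2, 64.4, 12.6, 11.04 and 5.59 CPM in Control libraries 1 to 5, with an r of 0.18 over 10 libraries and 0.60 over the 7. It was high in Control libraries 1 and 2 and, unlike Cd3e, not in KO library 2.

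Zap70, the kinase bound by the phosphorylated CD3 chains, had 1.78, 8.78, 1.47, 2.25 and 1.20 CPM in KO libraries 1 to 5 and 6.63, 6.42, 1.06, 2.06 and 2.82 CPM in Control libraries 1 to 5. Its r with Cd3e was 0.72 over 10 libraries and 0.99 over the 7 other than KO libraries 1, 4 and 5. In those 3 libraries Zap70 stayed between 1.20 and 2.25 CPM while Cd3e was at most 0.183 CPM. The chemokine gene Ccl5, made by T cells, NK cells and macrophages, likewise had an r of 0.40 over 10 libraries and 0.98 over the 7.

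**Figure D4:**
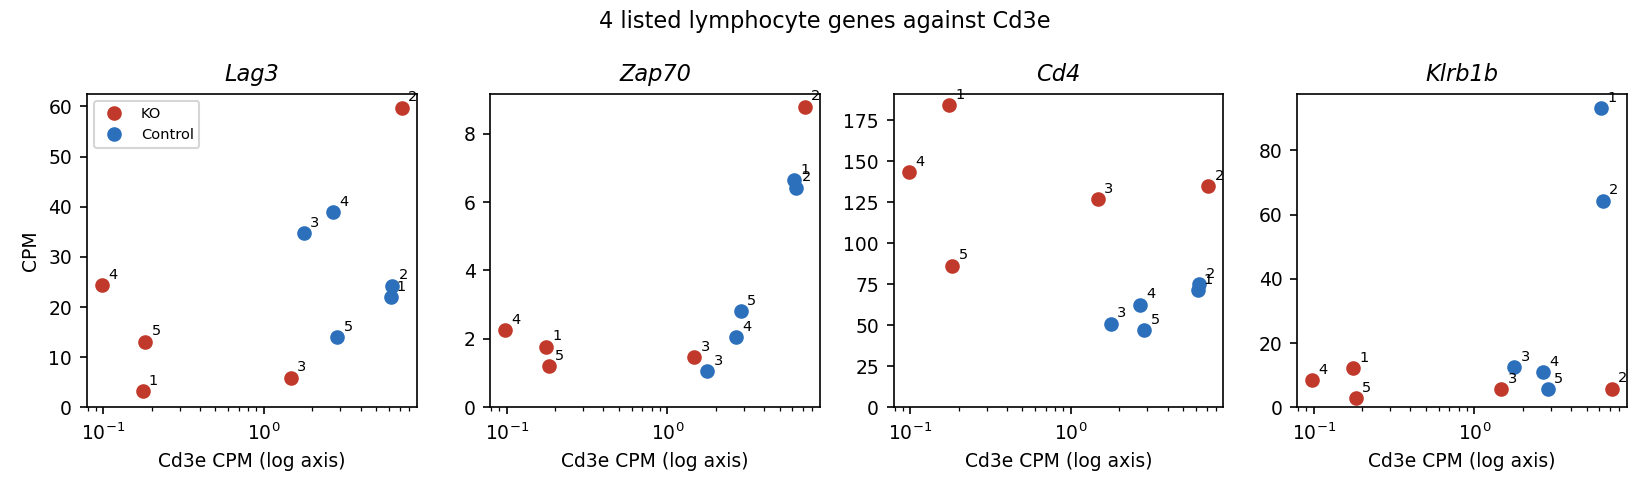
Level in CPM of Lag3, Zap70, Cd4 and Klrb1b against that of Cd3e in each of the 10 libraries (Cd3e on a log axis, the other genes on linear axes from 0, KO and Control libraries by colour). Zap70 stays between 1.20 and 2.25 CPM in KO libraries 1, 4 and 5, where Cd3e is at most 0.183 CPM. Cd4 stands between 86.5 and 184 CPM in KO libraries and between 47.2 and 75.2 CPM in Control libraries at every level of Cd3e.

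Pathways around the members were mixed. Among 12 tested genes of IL-2 and common gamma chain signalling, 8 had a log2 fold change below 0 and the median was -0.05. EdgeR called 0 of the 12, 4 had an unadjusted p under 0.05, and DESeq2 and limma-voom each called 1 lower, beside the shares over all genes of 1.41%, 15.3%, 5.71% and 3.10%. Il2rg, the common gamma chain that joins Il2rb in the receptor, averaged 54.8 ± 12.2 CPM in KO libraries and 69.6 ± 7.42 CPM in Control libraries (edgeR adjusted p = 0.323). Of 10 T cell attracting chemokines, edgeR, DESeq2 and limma-voom called 0, 2 had an unadjusted p under 0.05 (15.3% over all genes) and the median log2 fold change was -0.41. Those 2 were Ccl5 (log2 fold change -1.09, edgeR adjusted p = 0.244) and Cxcl11 (-0.93, edgeR adjusted p = 0.253), both lower in KO libraries. Of the 10, 7 had a log2 fold change below 0, against 50.5% of all tested genes. Cxcl9, a ligand of the chemokine receptor Cxcr3, went the other way. It averaged 73.8 ± 41.1 CPM in KO libraries and 47.4 ± 10.7 CPM in Control libraries (edgeR adjusted p = 0.414).

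Among homing receptors of lymphocytes, S1pr1, a sphingosine phosphate receptor that lymphocytes use to leave tissue and that other cells also express, was higher, at 36.4 ± 5.83 CPM in KO libraries and 13.6 ± 5.14 CPM in Control libraries (log2 fold change 1.42, edgeR adjusted p = 0.0167). Without Control library 4 the adjusted p of S1pr1 was 0.0509. Its r with Cd3e was -0.55.

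Counts set against each other within a library show which genes kept their proportion. Of the counts of Cd8a and Cd3e together, Cd8a made up 68.2% to 78.4% in KO libraries (median 72.8%) and 68.0% to 74.6% in Control libraries (median 72.1%). In KO library 4, with 10 and 4 counts, the share was 71.4% (exact 95% interval 41.9% to 91.6%, for counting error only), and in KO library 2, with 932 and 299 counts, 75.7% (73.2% to 78.1%). Il2rb made up 78.8% to 87.1% of its counts with Cd3e in KO libraries and 77.4% to 81.3% in Control libraries. The shares of Cd8a and Il2rb thus kept to a narrow range while Cd3e itself spanned 73.6-fold. A high share moves little when the ratio of the counts changes. With Cd3e, Cd3g made up 66.7% to 77.1% in KO libraries and 63.6% to 75.7% in Control libraries. Nkg7 made up 53.3% to 78.9% and 61.1% to 73.0%. Prf1 varied more, at 27.3% to 55.6% in KO libraries and 49.1% to 56.6% in Control libraries. In KO library 3, with 27 and 58 counts, the share of Prf1 was 31.8% (exact 95% interval 22.1% to 42.8%).

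Foxp3 did not keep its proportion. Of the counts of Foxp3 and Cd3e together, Foxp3 made up 65.2%, 13.6%, 35.6%, 78.9% and 63.2% in KO libraries 1 to 5 and 23.4%, 39.7%, 44.1%, 22.7% and 51.6% in Control libraries 1 to 5. KO library 2, with 47 and 299 counts, had the lowest share (exact 95% interval 10.2% to 17.7%), and the highest Control share, in library 5, had an interval of 45.2% to 58.1%. KO libraries 1, 4 and 5 had the highest shares, from 12 to 15 counts of Foxp3 against 4 to 8 of Cd3e.

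Gzmb and Prf1 parted as well. Gzmb made up 92.1%, 46.6%, 85.9%, 28.6% and 80.0% of their summed counts in KO libraries 1 to 5 and 70.8%, 76.1%, 50.3%, 44.9% and 61.4% in Control libraries 1 to 5. KO library 3, with 165 counts of Gzmb and 27 of Prf1, had an exact 95% interval of 80.2% to 90.5%, and KO library 2, with 274 and 314, one of 42.5% to 50.7%. These shares were chosen after the levels were seen and were not tested between groups.

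**Figure D5:**
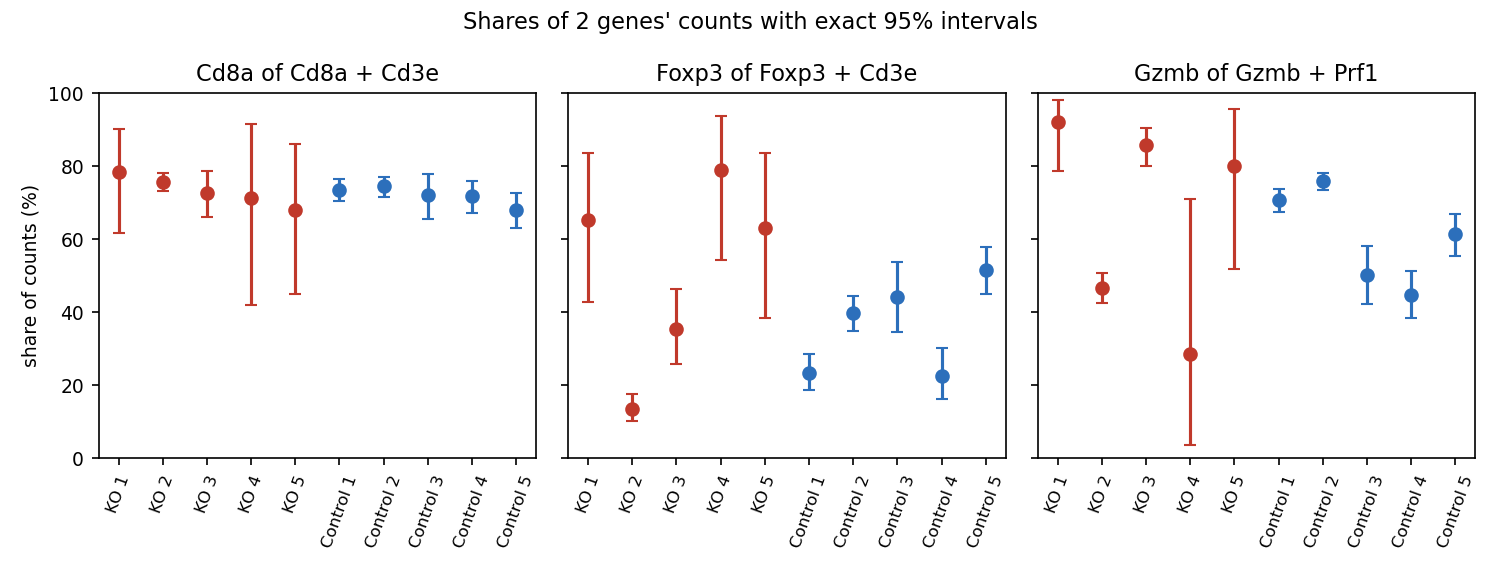
Share, in percent, of the first gene in the summed counts of a pair of genes, by library, with exact 95% binomial intervals for counting error and KO libraries left of Control libraries. Cd8a over Cd3e stays between 68.0% and 78.4%, while Foxp3 over Cd3e runs from 13.6% to 78.9%.

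Markers of other cell types were read in the same libraries. The summed level of the T cell list without Cd4 ran from 12.9 CPM through a median of 22.2 to 168 CPM in KO libraries, the highest being KO library 2, and from 61.6 through 102 to 207 CPM in Control libraries. Neutrophil markers summed to 116, 160 and 226 CPM (lowest, median, highest) in KO libraries and to 166, 330 and 677 CPM in Control libraries. All 10 tested had a log2 fold change below 0, against 50.5% of all tested genes, and the median was -2.21. An unadjusted p under 0.05 was found in 6 of the 10, against 15.3% of all tested genes. DESeq2 called 3 lower, against 5.71% of all genes in either direction. EdgeR and limma-voom called 0, against 1.41% and 3.10%. KO library 2, the highest for T cell genes, was the lowest of the 10 for neutrophil and for fibroblast markers. Fibroblast markers summed to 345, 682 and 3695 CPM in KO libraries and 770, 1354 and 2440 CPM in Control libraries.

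Conventional dendritic cell markers summed to 601, 943 and 1482 CPM in KO libraries and 857, 1005 and 1073 CPM in Control libraries. Of 15 tested, 11 had a log2 fold change below 0, with a median of -0.72. An unadjusted p under 0.05 was found in 6 of the 15, against 15.3% of all tested genes. DESeq2 called 4 lower and limma-voom 1, against 5.71% and 3.10% of all genes in either direction. EdgeR called 1 of the 15 lower, against 0.543% of all tested genes. It was Dpp4, a surface peptidase of dendritic and T cells, at 0.918 ± 0.453 CPM in KO libraries and 4.55 ± 1.79 CPM in Control libraries (log2 fold change -2.31, edgeR adjusted p = 0.0297). That call was lost without any one of Control libraries 1 to 4 or KO libraries 4 and 5 (edgeR adjusted p from 0.0623 to 0.0838). B and plasma cell markers summed to 198, 416 and 794 CPM in KO libraries and 289, 399 and 588 CPM in Control libraries. Core macrophage markers summed to 41230, 43072 and 52673 CPM in KO libraries and 38951, 39995 and 47332 CPM in Control libraries. Of these 18 genes edgeR called 1 higher, against 0.870% of all tested genes. It was the lysosomal glycoprotein gene Cd68, at 1169 ± 115 CPM in KO libraries and 830 ± 49.4 CPM in Control libraries (log2 fold change 0.49, edgeR adjusted p = 0.0260). That call was lost without any one of Control libraries 1 to 4 (edgeR adjusted p from 0.0668 to 0.0832). Melanoma markers summed to 31.2, 47.3 and 59.9 CPM in KO libraries and 33.0, 53.8 and 57.4 CPM in Control libraries. Sox10, a neural crest factor of melanocytes, averaged 24.9 ± 8.93 CPM in KO libraries and 27.4 ± 15.8 CPM in Control libraries, whereas the pigment genes Mlana and Tyr, picked after their values were seen, were at 0 in 5 of 5 KO libraries and 4 of 5 Control libraries. Trpm1, a channel gene of melanocytes, was called higher at 1.27 ± 0.362 CPM in KO libraries and 0.326 ± 0.139 CPM in Control libraries (log2 fold change 1.96, edgeR adjusted p = 0.0270), a call lost without any one of Control libraries 1 to 4 or KO library 4 (edgeR adjusted p from 0.0508 to 0.0782). The part of these other cell types in the levels of the 10 genes was not tested. The median r with Cd3e was 0.27 for neutrophil, 0.06 for fibroblast, 0.02 for conventional dendritic cell and -0.17 for B and plasma cell markers.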

How the data were processed

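F4/80+ macrophages sorted from tumours of Ccr2 KO and Control mice gave 5 poly-A RNA-seq libraries each, made with a directional kit, as the labels' protocols state. STAR and the genome build GRCm39 are named in the submitters' processing notes, while the aligner's version and the annotation were not given in the sources used here. Deposited values were whole-number counts per gene, and the reverse-strand column was used. Multimapping reads were listed as 0. Totals of 34639808 to 43360206 counts per library set the precision. A combined count table with 10 unnamed columns was not used.

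Genes were tested with edgeR 4.0.16 (quasi-likelihood, filterByExpr with a minimum count of 10, TMM, R 4.3.3), with Benjamini-Hochberg adjustment over 14374 genes and a threshold of 0.05. A standard error is the size of the log2 fold change divided by the square root of F. CPM uses TMM-scaled library sizes, and log2 CPM a prior count of 2. Exon lengths came from GENCODE on GRCm38 and symbols from a table of gene names, which matched 52083 of 55359 identifiers. Correlations used scipy 1.17.1, and figures matplotlib 3.10.9.

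The genes and lists were chosen with earlier results of these data known. Named are the 10 genes, for each the 3 genes most like it, up to 4 genes per list with the smallest p, Ccr2 and Adgre1, and not all that the rule names are described. Lag3, Zap70, Cd247, Tnfrsf9, Mlana and Tyr fall outside this rule and were chosen with their values known. Alternatives were other scalings, filters and tests (DESeq2 1.42.0, limma-voom 3.58.1), unstranded counts, a replicate block, libraries left out and close libraries summed. A few genes under this rule are left unreported.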

Additional observations from a re-analysis of the deposited data

Results flagged for a closer look

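KO library 2 stood far above the other KO libraries in 7 of the 10 genes. The gap to the next KO library was more than 0.71 of the group's range, Dixon's critical value for 5 samples, on the CPM scale. Its level was 7.2 CPM for Cd3e (next highest 1.47), 15.4 CPM for Cd3g (3.47), 22.4 CPM for Cd8a (3.93), 28.4 CPM for Il2rb (7.60), 15.9 CPM for Nkg7 (4.05), 7.56 CPM for Prf1 (0.684) and 6.76 CPM for Ctla4 (1.34). The gap took between 0.744 (Il2rb) and 0.917 (Prf1) of the range. On the log2 CPM scale the gap took between 0.107 (Gzmb) and 0.558 (Prf1) of the range over the 10 genes, so none would pass there. Chance flags about 1 in 20 groups, and 20 combinations of gene and group were examined. The 7 genes vary together, so their flags repeat 1 library's standing and are not separate events. Foxp3, Gzmb and Ncr1 gave no such flag in either group.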

How the results depend on the processing

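All 207 fold changes of the 9 tested genes over 23 alternatives kept their sign. Of these, 2 crossed the threshold, Foxp3 in DESeq2 and Prf1 without KO library 2, and the other 205 stayed on their side. The number called among the 9 was 0 in edgeR, 1 in DESeq2, and 0 to 1 with each library left out. Over all genes, edgeR called 203, DESeq2 820, limma-voom 446, the fit without KO 4 and 5 called 50, the one with close control pairs summed 29, and with KO 4 and 5 summed as well 8. With each library left out in turn the calls numbered 62 (without Control 2) to 267 (without KO 3), and also 77 without Control 1 or Control 4, 101 without Control 3, 107 without KO 4 and 92 without KO 5. Groups share title numbers, and deviations of same-numbered libraries correlated at 0.34, 0.08, -0.53, 0.18 and -0.22. Differently numbered libraries were not compared in this way, so these values cannot decide whether the numbers pair libraries. With the number as a replicate block 55 genes and 0 of the 9 were called, and the median log2 fold change of the 9 was -2.65, against -1.38 without it and -2.85 in limma-voom. With each library left out that median ran from -1.03 (without Control 2) to -3.02 (without KO 2). What caused these shifts in the calls and in the median was not tested. The median r over the 45 pairs, 0.90, ran from 0.81 to 0.93 with each library left out. It was 0.91 with a prior of 1 CPM, 0.84 without KO 4 and 5, and 0.90 with close control pairs summed. Cd4, Rab27a, S1pr1, Dpp4, Trpm1 and Cd68 each lost their call in some alternatives, and all 6 when close control pairs were summed (edgeR adjusted p from 0.150 to 0.240). Scaled to core macrophage counts, Cd4 had an adjusted p of 0.0642. Low counts limit KO libraries 1, 4 and 5, where Cd3e has 4 to 8 counts.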

Other observations

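In the list of gamma delta T cell and innate lymphoid genes, Trdc, the constant region of the T cell receptor delta chain, had 0.373, 0.193, 0.938, 0.0978 and 0.157 CPM in KO libraries 1 to 5 and 3.90, 3.804, 0.257, 0.139 and 0.437 CPM in Control libraries 1 to 5. Control libraries 1 and 2 were high, while KO library 2, the highest in Cd3e, was not. The r of Trdc with Cd3e was 0.40, and its log2 fold change of -2.27 had a standard error of 0.98 (edgeR adjusted p = 0.304). Tcrg-C2, a gamma chain constant region with close paralogs, followed Cd3e with an r of 0.93, as did the transcription factor gene Gata3 with 0.89. EdgeR, DESeq2 and limma-voom called 0 of the 7 tested genes of that list, and 1 had an unadjusted p under 0.05, beside shares over all genes of 1.41%, 5.71%, 3.10% and 15.3%.

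Tnfrsf9, the costimulatory receptor 4-1BB in the regulatory T cell list, had 1.98, 17.3, 23.6, 13.9 and 7.28 CPM in KO libraries 1 to 5 and 25.03, 24.1, 5.63, 7.02 and 16.0 CPM in Control libraries 1 to 5. KO libraries 2 to 5, with 7.20, 1.47, 0.0978 and 0.183 CPM of Cd3e, exceeded Control libraries 3 and 4 in Tnfrsf9. KO library 1 did not. Tnfrsf9 was chosen after its values were seen.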
